A study of Rattus norvegicus with 12 samples.

Results

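The genes described here are 34 named genes of fatty acid synthesis, fatty acid oxidation and the liver X receptor (LXR) pathway in rat Schwann cells, chosen by symbol from the deposited gene table. The table has 30957 genes, 33 of the 34 symbols were found in it, and all 33 had enough counts to be tested among 12360 genes. Scd stands in the table as Scd1 and is described beside the others without being counted among the 33. Messenger RNA was sequenced in 4 groups of 3 libraries. In the first group the Schwann cells were grown alone, and the sample titles name them Rsc96, taken here as RSC96, an immortalised rat Schwann cell line. In the second they shared the culture with monocyte-derived macrophages (MDM), and the labels give the treatment of both of these groups as untreated. In the third and the fourth they shared it with macrophages that had been turned into tumour-associated macrophages by human pancreatic cancer lines, BxPC-3 in the case of BxTAM and MIA PaCa-2 in that of MiaTAM. The labels name no genotype, dose or time, and no source used here gives the species that the macrophages came from. The line is named for the cells alone, and the co-culture labels say only that the cells are rat Schwann cells. Sample titles and column headers name the MDM group PBMC, and the column headers name the cells alone HSC96.

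Cells make fatty acids from acetyl-CoA, which acetyl-CoA carboxylase commits to the pathway and fatty acid synthase builds into palmitate. Elongases and desaturases then lengthen and desaturate the chain, acyl-CoA synthetases activate it, and it is stored, built into membranes or carried into mitochondria by carnitine palmitoyltransferases for oxidation. The transcription factor SREBP-1 drives synthesis genes, LXR receptors sense oxysterols and drive sterol export, phospholipid remodelling and SREBP-1 itself, and PPAR receptors sense fatty acids and drive their oxidation and storage. In Schwann cells these pathways supply the lipids of myelin.

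Library totals ran from 16555215 to 21506669 counts. Levels are CPM values, which are counts scaled to a fixed library total with edgeR's TMM factors, and, where levels of different genes are compared, the authors' FPKM, which is a level per gene length. A change is a log2 fold change with its standard error after the ± sign, from 3 libraries in each group. A gene was called higher or lower where its adjusted p in edgeR's quasi-likelihood test was under 0.05 over all 12360 genes, and the words rose and fell are used of such calls only. Whether replicate libraries of 1 group stem from separate cultures is not said in the labels, and the p-values then measure only how far these samples spread, which can be technical. Of 14 Schwann cell markers 13 were found, 6 had means under 1 CPM in every group, and Cdh19 was at 0 in all libraries. Their summed level was lowest in cells alone (213 to 224 CPM) and highest in MDM co-culture (292 to 323 CPM), with BxTAM at 244 to 249.8 CPM and MiaTAM at 248 to 258 CPM. Of 24 macrophage markers, 20 had means under 1 CPM in every group, and Tyrobp, C1qa, Marco and Trem2 had no count in any library. The summed level of the list was 9.84 to 11.5 CPM in cells alone, 15.96 to 17.6 CPM with MDM, 19.8 to 20.4 CPM with BxTAM and 22.4 to 24.8 CPM with MiaTAM. Markers of other kinds also differed between groups. To be set beside their counts, 32% of all tested genes were higher and 33.1% lower with MDM against cells alone. Those shares were 17.4% and 17.3% with BxTAM against MDM, and 19.8% and 21.1% with MiaTAM against MDM. Of 4 tested epithelial markers, 2 were higher and 1 lower with MDM against cells alone, 3 were lower with BxTAM against MDM, and 1 was higher and 1 lower with MiaTAM against MDM, at summed levels of 37.0 to 37.9 CPM in cells alone, 39.0 to 41.8 CPM with MDM, 29.1 to 33.6 CPM with BxTAM and 43.7 to 45.3 CPM with MiaTAM. All 3 tested fibroblast markers were higher with MDM than in cells alone, and 2 were lower with BxTAM and 1 with MiaTAM than with MDM, while Col1a2, Dcn and Lum were at 0. Of 9 genes of the mitochondrial chromosome, 2 were higher and 7 lower with MDM against cells alone, 4 higher with BxTAM against MDM and 7 higher with MiaTAM against MDM. The part of these markers in the results on lipid genes was not tested. In bulk libraries of this kind, fewer cells of a type and less RNA per cell cannot be told apart.

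Fasn, the gene of fatty acid synthase, was higher with both kinds of tumour-associated macrophage than with MDM (0.59 with BxTAM and 0.61 with MiaTAM), and members changed in both directions between MDM co-culture and cells alone. Against cells alone, 13 of 33 genes were higher and 8 lower in MDM co-culture, or 39.4% and 24.2%, where 32% and 33.1% of all tested genes were called. With BxTAM 20 were higher and 5 lower (60.6% and 15.2%), beside 30% and 30.9% of all genes, and with MiaTAM 20 were higher and 4 lower (60.6% and 12.1%), beside 31.4% and 33.7%. These 3 comparisons share the libraries of cells alone. The median change of the 33 genes was -0.00 with MDM, 0.22 with BxTAM and 0.13 with MiaTAM, and that of all genes -0.01, 0.00 and -0.01. In each of the 3, only the acetyl-CoA carboxylase gene Acacb was called at 2-fold or more, where 8.46%, 7.56% and 8.93% of all genes were.

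Against MDM co-culture, where macrophages were present without induction by cancer cells, 15 of 33 genes were higher and 2 lower with BxTAM (45.5% and 6.06%), beside 17.4% and 17.3% of all genes. With MiaTAM 14 were higher and 3 lower (42.4% and 9.09%), beside 19.8% and 21.1%, and both comparisons share the MDM libraries. The median change of the 33 genes was 0.12 with BxTAM and 0.09 with MiaTAM, and that of all genes -0.00 and -0.01. No change reached 2-fold in either, where 1.75% and 1.59% of all genes did. The lower count with MiaTAM was 6 without MiaTAM replicate 3. Between MiaTAM and BxTAM, 6 genes were higher and 5 lower with MiaTAM (18.2% and 15.2%), beside 11% and 13.3% of all genes, and none changed 2-fold, as 0.267% of all genes did. Those counts rested on few libraries, with 3 higher without BxTAM replicate 2 and likewise 3 without BxTAM replicate 3, 4 higher without MiaTAM replicate 2, and 3 lower without BxTAM replicate 3. Under upper-quartile scaling the split was 8 higher and 4 lower. Counts of the smaller lists below stand beside the same shares of all genes. With MDM against cells alone those shares are 32% higher and 33.1% lower. Whether a list differs from the shares of all genes was not tested.

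**Figure D1:**
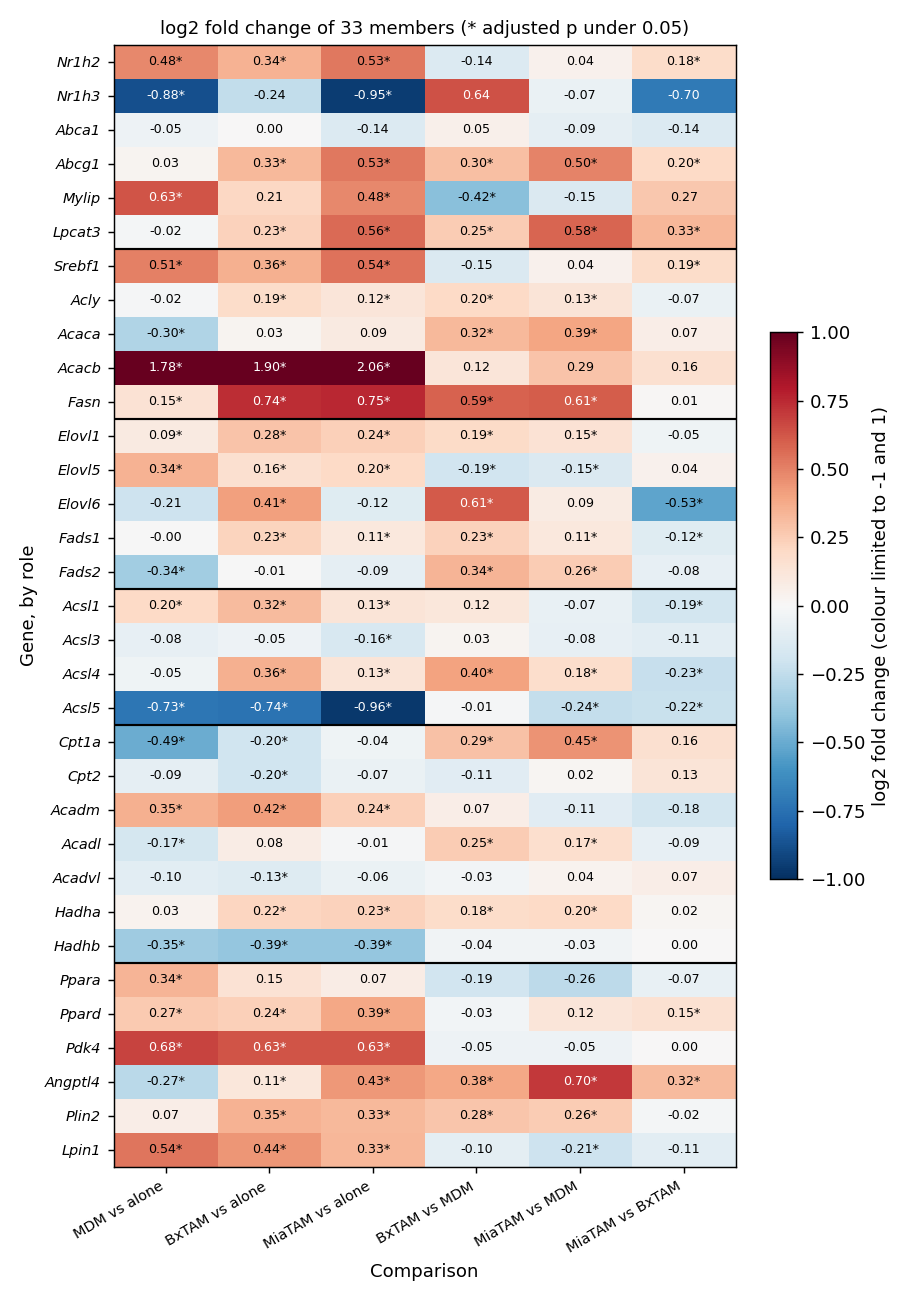
Colour map of the log2 fold change of each of the 33 genes (rows, in the order LXR genes, synthesis, elongation and desaturation, acyl-CoA synthetases, mitochondrial oxidation, and PPAR with lipid-induced genes) in the 6 comparisons (columns). An asterisk marks an adjusted p under 0.05 in edgeR, and the colour scale is limited to -1 and 1, so that Acacb at 1.78, 1.90 and 2.06 against cells alone lies beyond it.

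Promoters of 28 of the 34 genes were searched for the exact letters of 5 short motifs, and only CCAAT and the E-box were found. Promoters were taken from RefSeq on the assembly GRCr8, which is not the build of the deposited table, and the 250 bases before each start site were searched on both strands. They were found for 28 of the 34 genes, at 30 start sites. Abcg1, Acaca, Fasn, Elovl6, Acadl and Ppard had no promoter entry, so the search says nothing of them. The CCAAT motif, named for NF-Y, was present at 12 of 30 sites (40%) in 11 genes, and at 34% of 33469 start sites overall. The E-box CACGTG, which SREBP proteins and many other factors bind, was present at 3 of 30 sites (10%), in Abca1, Elovl5 and Plin2, and at 5.59% overall. Another start site of Plin2 holds none of the 5 motifs. The SREBP element TCACNCCAC was at none of the 30 sites and at 0.974% overall. The LXR repeat, which is AGGTCA, any 4 bases and AGGTCA, and the PPAR repeat, which is AGGTCA, any 1 base and AGGTCA, were also at none, and at 0.00299% and 0.0508% overall. The exact letters of these 3 motifs are so rare, the LXR repeat at 1 of 33469 start sites, that 30 sites could hardly hold them. Sites that differ from these letters were not searched for, so the search cannot tell whether SREBP, LXR or PPAR sites are present. The motifs do not overlap one another in what is printed, a match is a description of letters, and a missing match says only that these letters are not in the window. Of 14 genes called higher than MDM with BxTAM and with MiaTAM, 10 had a promoter entry. Of these, 3 hold CCAAT and 1 the E-box, beside 34% and 5.59% of all start sites. Those 4 are shown because they hold a motif, and Elovl1, Fads2, Acsl4, Cpt1a, Hadha and Angptl4, called likewise, hold none of the 5 motifs. Elovl5, called lower than MDM in both, holds CCAAT 2 times and also the E-box. A link between motifs and changes was not tested. The 130 bases before the start site follow for ATP citrate lyase (chr10:85963632-85963761, minus strand), the fatty acid desaturase Fads1 (chr1:216252562-216252691, plus strand), the phospholipid remodelling enzyme Lpcat3 (chr4:159154560-159154689, plus strand) and the lipid droplet coat gene Plin2 (chr5:106229019-106229148, minus strand), each 5′ to 3′ on the strand of the gene, with CCAAT, its reverse complement ATTGG or the E-box in capitals.
Acly: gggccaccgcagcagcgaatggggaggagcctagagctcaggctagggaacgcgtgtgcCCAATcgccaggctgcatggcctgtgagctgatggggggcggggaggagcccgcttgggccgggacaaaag
Fads1: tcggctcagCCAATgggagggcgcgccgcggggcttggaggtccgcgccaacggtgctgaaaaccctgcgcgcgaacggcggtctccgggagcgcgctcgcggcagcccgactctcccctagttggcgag
Lpcat3: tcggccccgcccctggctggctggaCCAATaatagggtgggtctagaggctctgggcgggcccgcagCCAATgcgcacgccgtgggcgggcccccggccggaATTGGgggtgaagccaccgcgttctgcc
Plin2: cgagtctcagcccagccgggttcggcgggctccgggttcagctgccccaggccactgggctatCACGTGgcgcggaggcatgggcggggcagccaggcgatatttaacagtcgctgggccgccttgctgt

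Of the synthesis genes, Srebf1, Acacb and Fasn were higher in all 3 co-cultures than in cells alone, and Acaca was called lower with MDM only. Fasn, which encodes fatty acid synthase (ENSRNOG00000045636, Rnor_6.0 chromosome 10, 109987735 to 110005901), stood at 553, 575 and 529.9 CPM in cells alone and 589, 595 and 651 CPM with MDM. With BxTAM it stood at 974, 895 and 896 CPM and with MiaTAM at 920.1, 956 and 916 CPM. All 6 TAM libraries lay above all 6 others, and the MDM libraries lay above those of cells alone. Against MDM, Fasn rose 1.51-fold with BxTAM (0.59 ± 0.05, edgeR adjusted p = 4.00e-09) and 1.52-fold with MiaTAM (0.61 ± 0.05, edgeR adjusted p = 2.70e-09). Its difference between MDM and cells alone was small (0.15 ± 0.05) and was no longer called without alone replicate 3 (0.11) or without MDM replicate 3 (0.10).

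Both acetyl-CoA carboxylase genes are members, and with MDM 1 fell and the other rose against cells alone. Acaca, the cytosolic enzyme whose malonyl-CoA feeds synthesis, stood at 93.8, 95.1 and 89.1 CPM in cells alone, 75.9, 69.5 and 80.6 CPM with MDM, 96.9, 90.4 and 95.95 CPM with BxTAM and 99.6, 95.97 and 101 CPM with MiaTAM. The MDM libraries were below all the others. Acaca fell with MDM (-0.30 ± 0.05, edgeR adjusted p = 3.25e-05) and was higher with BxTAM (0.32 ± 0.05) and MiaTAM (0.39 ± 0.05) than with MDM, and against cells alone neither TAM group was called. Acacb, the form at the mitochondrial surface whose product restrains Cpt1, stood at 2.61, 2.80 and 2.66 CPM in cells alone, 8.30, 9.14 and 10.2 CPM with MDM, 11.6, 10.6 and 8.02 CPM with BxTAM and 11.99, 10.4 and 11.4 CPM with MiaTAM. Each of the 9 co-culture libraries was above each library of cells alone. The MiaTAM libraries were also above those with MDM, and the BxTAM libraries overlapped both. Acacb rose 3.43-fold with MDM (1.78 ± 0.15, edgeR adjusted p = 1.71e-09), 3.73-fold with BxTAM (1.90 ± 0.15) and 4.18-fold with MiaTAM (2.06 ± 0.15). On the scale of log2(FPKM + 1), which understates the change of a gene this low, the 3 values were 0.53, 0.60 and 0.68 in limma-trend, still called but under 2-fold. Against MDM it was not called with BxTAM (0.12 ± 0.12) or MiaTAM (0.29 ± 0.12). MiaTAM was called higher than MDM under upper-quartile factors (0.30), without a filter on low counts, with only the 2 groups fitted, and without MDM replicate 3 (0.37), BxTAM replicate 1 (0.29), BxTAM replicate 3 (0.29) or MiaTAM replicate 2 (0.34). Per gene length Acacb remained the minor form, with a ratio of its FPKM to that of Acaca of 0.0180 in cells alone, 0.0761 with MDM, 0.0664 with BxTAM and 0.0707 with MiaTAM as means of 3 libraries.

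Srebf1, the gene of SREBP-1, rose against cells alone in every co-culture. It stood at 203, 205 and 171 CPM in cells alone, 263, 281 and 278 CPM with MDM, 260.4, 255 and 228 CPM with BxTAM and 256, 296 and 294 CPM with MiaTAM. All 9 co-culture libraries lay above those of cells alone, by 0.51 ± 0.07 with MDM, 0.36 ± 0.07 with BxTAM and 0.54 ± 0.07 with MiaTAM. Against MDM it was not called with BxTAM (-0.15 ± 0.06) or with MiaTAM (0.04), though BxTAM was called lower where only the 2 groups were fitted, where no filter was used, or without alone replicate 3 (-0.14). Srebf1 overlaps Rai1 on the table's coordinates, with 54946 and 18527 counts in all libraries, and no source used here gives the strand setting. Acly, ATP citrate lyase, which makes the acetyl-CoA, had 403 ± 5.64 CPM in cells alone, 399 ± 2.25 with MDM, 459 ± 5.60 with BxTAM and 438 ± 0.722 with MiaTAM (mean ± SD, n = 3). It was higher against MDM with BxTAM (0.20 ± 0.03) and MiaTAM (0.13 ± 0.03). In all, 3 of these 5 synthesis genes were higher and none lower against MDM with BxTAM, and likewise 3 and none with MiaTAM, while with MDM against cells alone 3 were higher and 1 lower. Beside these counts stand 17.4% and 17.3%, 19.8% and 21.1%, and 32% and 33.1% of all genes.

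**Figure D2:**
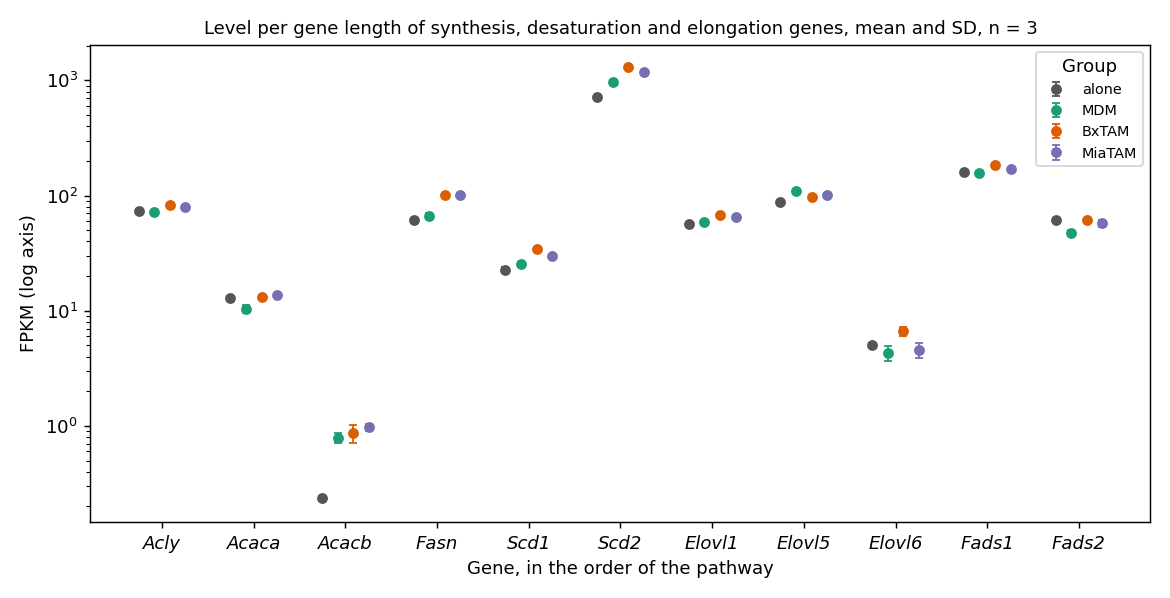
FPKM (log axis, mean and SD of 3 libraries) of synthesis, desaturation and elongation genes in the order of the pathway, by group. Scd2 lies highest in every group, from 709.7 FPKM in cells alone to 1308 FPKM with BxTAM, and Acacb lies lowest, from 0.234 FPKM in cells alone to 0.972 FPKM with MiaTAM.

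Genes beside the 5 were read from a list of 17 lipogenic and SREBP control genes, 14 of them tested. Of these 9 were higher and 3 lower with MDM against cells alone, 10 higher and 2 lower with BxTAM against MDM, and 7 higher and 5 lower with MiaTAM against MDM. Among all genes the shares were 32% and 33.1%, 17.4% and 17.3%, and 19.8% and 21.1%. Scd2, a stearoyl-CoA desaturase, had 3551 ± 78.1 CPM in cells alone, 4896 ± 137 with MDM, 6597 ± 93.8 with BxTAM and 6012 ± 99.9 with MiaTAM, and rose against MDM with BxTAM (0.43 ± 0.04) and MiaTAM (0.30 ± 0.04). Scd1, the row that stands for the listed Scd, went from 101 ± 4.62 CPM in cells alone to 114 ± 4.10 with MDM, 152 ± 3.60 with BxTAM and 133 ± 1.24 with MiaTAM, or 0.42 ± 0.04 and 0.22 ± 0.04 against MDM. RefSeq gives Scd as another name of Scd2 as well, so both are shown. Per gene length Scd2 was the main form, at 31.2 times the FPKM of Scd1 in cells alone, 38.2 with MDM, 38.4 with BxTAM and 40.1 with MiaTAM. Insig1, which holds SREBP proteins in the endoplasmic reticulum, rose with MDM (1.02 ± 0.04) and then differed between the TAM groups, higher than MDM with BxTAM (0.17 ± 0.04) and lower with MiaTAM (-0.36 ± 0.04). Acss2, which makes acetyl-CoA from acetate and was picked after its values were seen, rose against MDM by 0.74 ± 0.04 with BxTAM and 0.56 ± 0.04 with MiaTAM.

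Of the 5 elongation and desaturation members, 4 were higher and 1 lower with BxTAM against MDM, 3 higher and 1 lower with MiaTAM against MDM, and 2 higher and 1 lower with MDM against cells alone. Beside these counts stand 17.4% and 17.3%, 19.8% and 21.1%, and 32% and 33.1% of all genes. Elovl6, which extends palmitate to stearate, stood at 11.99, 12.7 and 12.7 CPM in cells alone, 10.5, 12.7 and 9.38 CPM with MDM, 18.1, 15.8 and 15.7 CPM with BxTAM and 13.4, 10.5 and 10.4 CPM with MiaTAM. All 3 BxTAM libraries were above all 9 others. Elovl6 was higher with BxTAM than with MDM (0.61 ± 0.11, edgeR adjusted p = 1.89e-04) and lower with MiaTAM than with BxTAM (-0.53 ± 0.11, edgeR adjusted p = 0.00176). The symbol stands on 2 rows of the table, and these values are of the row with more counts, 2825 against 540 in all libraries. The other row was also higher with BxTAM than with MDM (0.92 ± 0.22) and lower with MiaTAM than with BxTAM (-0.60 ± 0.21). Unlike the row used, it was called lower with MDM than in cells alone (-0.53 ± 0.23). Its level in alone replicate 1 (3.35 CPM) was above BxTAM replicates 1 and 2 (3.11 and 3.22 CPM).

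The desaturases Fads1 and Fads2 make polyunsaturated chains. Fads2 fell with MDM (-0.34 ± 0.06), from 82.8 ± 1.22 to 65.2 ± 4.49 CPM, and stood at 82.5 ± 2.72 CPM with BxTAM and 78.01 ± 5.64 CPM with MiaTAM, higher than with MDM in both (0.34 ± 0.06 and 0.26 ± 0.06). Fads1 had 541 ± 14.1 CPM in cells alone, 539.9 ± 21.9 with MDM, 632 ± 8.70 with BxTAM and 582 ± 9.53 with MiaTAM, and rose against MDM with BxTAM (0.23 ± 0.04). Its rise with MiaTAM against MDM (0.11 ± 0.04) was no longer called without MDM replicate 1 (0.08) or without MiaTAM replicate 2 (0.10). Elovl5, which elongates polyunsaturated chains, showed the other order, with 96.6 ± 1.78 CPM in cells alone, 123 ± 4.47 with MDM, 108 ± 1.83 with BxTAM and 111 ± 6.45 with MiaTAM. It rose with MDM (0.34 ± 0.04) and was lower than that with BxTAM (-0.19 ± 0.04) and MiaTAM (-0.15 ± 0.04), the last no longer called without MiaTAM replicate 1 (-0.12). Elovl1, which extends saturated very long chains, was higher than with MDM in both TAM groups (0.19 ± 0.04 and 0.15 ± 0.04). Its rise with MDM (0.09 ± 0.04, and 0.15 under upper-quartile factors) was no longer called when any of 8 libraries was left out, namely alone replicates 2 and 3, MDM replicates 1, 2 and 3, BxTAM replicates 1 and 3, and MiaTAM replicate 3, with values from 0.08 to 0.09.

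A further 12 elongation and desaturation genes were listed and 8 tested. Of the 8, 3 were higher and none lower against MDM with BxTAM, and likewise 3 and none with MiaTAM, while 2 were higher and 3 lower with MDM against cells alone. Among all genes the shares were 17.4% and 17.3%, 19.8% and 21.1%, and 32% and 33.1%. Fads3, the least studied of the desaturase cluster, fell with MDM from 108 ± 1.79 to 60.3 ± 1.39 CPM (-0.84 ± 0.04) and was higher than that with BxTAM (0.45 ± 0.04) and MiaTAM (0.54 ± 0.04). Elovl4, an elongase of very long chains, rose with MDM (0.29 ± 0.07) and further with BxTAM (0.18 ± 0.06) and MiaTAM (0.20 ± 0.06). Hsd17b12, the reductase of the elongation cycle, fell in all co-cultures, by -0.39 ± 0.04 with MDM, -0.35 ± 0.04 with BxTAM and -0.44 ± 0.04 with MiaTAM.

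The 4 acyl-CoA synthetases had no common direction. Acsl5, which activates fatty acids at mitochondria and the endoplasmic reticulum, stood at 110.4, 114 and 106 CPM in cells alone, 70.6, 63.98 and 65.4 CPM with MDM, 64.3, 69.9 and 63.8 CPM with BxTAM and 58.1, 52.8 and 58.5 CPM with MiaTAM. Every co-culture library was below every library of cells alone, and the MiaTAM libraries were below all others. Acsl5 fell 1.65-fold with MDM (-0.73 ± 0.05), 1.67-fold with BxTAM (-0.74 ± 0.05) and 1.95-fold with MiaTAM (-0.96 ± 0.05, edgeR adjusted p = 2.23e-12). Acsl4, which prefers arachidonic acid, stood at 501, 481 and 521 CPM in cells alone, 494, 472 and 489.8 CPM with MDM, 622, 641 and 663 CPM with BxTAM and 559.8, 500.3 and 585 CPM with MiaTAM. The BxTAM libraries were above all the others. Acsl4 was higher with BxTAM than with MDM (0.40 ± 0.05, edgeR adjusted p = 2.02e-06) and lower with MiaTAM than with BxTAM (-0.23 ± 0.05). With MiaTAM against MDM (0.18 ± 0.05) it was no longer called without MiaTAM replicate 3 (0.13).

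Acsl1, the main synthetase of fat storing tissues, had 60.1 ± 1.43 CPM in cells alone, 69.1 ± 3.02 with MDM, 74.9 ± 3.12 with BxTAM and 65.8 ± 2.31 with MiaTAM. It rose with MDM (0.20 ± 0.05) and BxTAM (0.32 ± 0.05), and its lower level with MiaTAM than with BxTAM (-0.19 ± 0.05) was no longer called without BxTAM replicate 3 (-0.16). Acsl3, a synthetase of the endoplasmic reticulum and lipid droplets, stayed between 235 CPM with MiaTAM and 263 CPM in cells alone, and was called only with MiaTAM against cells alone (-0.16 ± 0.05), a call lost under upper-quartile scaling and a value of -0.11 without MiaTAM replicate 2. Uptake and binding genes, 17 listed and 10 tested, had 2 higher and 2 lower with MDM against cells alone, 1 and 3 with BxTAM against MDM, and 1 and 3 with MiaTAM against MDM. Beside these counts stand 32% and 33.1%, 17.4% and 17.3%, and 19.8% and 21.1% of all genes. Slc27a1, a fatty acid transporter, rose with MDM (0.83 ± 0.05) and was lower than that with BxTAM (-0.35 ± 0.05) and MiaTAM (-0.24 ± 0.05). Acot7, an acyl-CoA thioesterase, was higher with MiaTAM than with MDM (0.40 ± 0.04), and Lrp1, a lipoprotein and protease receptor, rose with MDM (0.39 ± 0.05).

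Of the 6 LXR genes, 2 were higher and 1 lower with MDM against cells alone, 2 higher and 1 lower with BxTAM against MDM, and 2 higher and none lower with MiaTAM against MDM. In each comparison 33.3% were higher, and 16.7% were lower in the first 2. Of all genes, 32% were higher and 33.1% lower in the first. The shares of all genes were 17.4% and 17.3% with BxTAM against MDM, and 19.8% and 21.1% with MiaTAM against MDM. The receptor gene Nr1h2 (LXR beta), the form found in most tissues, stood at 93.8, 103 and 95.6 CPM in cells alone, 136, 138 and 136 CPM with MDM, 129, 120.2 and 123 CPM with BxTAM and 133, 157 and 132 CPM with MiaTAM. All 9 co-culture libraries were above those of cells alone, by 0.48 ± 0.06 with MDM, 0.34 ± 0.06 with BxTAM and 0.53 ± 0.06 with MiaTAM. Against MDM it was not called with BxTAM (-0.14 ± 0.05), and was called lower there with a replicate block, without a filter, with only the 2 groups fitted, or without BxTAM replicate 1 (-0.17) or any of the MiaTAM libraries (-0.14 each time). Nr1h3 (LXR alpha), the form of liver and macrophages, stood near 1 CPM, at 1.31, 1.27 and 0.958 CPM in cells alone, 0.749, 0.454 and 0.700 CPM with MDM, 0.912, 0.920 and 1.15 CPM with BxTAM and 0.730, 0.663 and 0.434 CPM with MiaTAM. The MDM and MiaTAM libraries were below those of cells alone, and the BxTAM libraries overlapped them. It fell with MiaTAM (-0.95 ± 0.29, edgeR adjusted p = 0.00688) and with MDM (-0.88 ± 0.28), the latter no longer called without MDM replicate 2 (-0.70). In limma-trend on log2(FPKM + 1) the values of this low gene were -0.33 with MiaTAM and -0.32 with MDM. Per gene length Nr1h2 was at 68.3 times the FPKM of Nr1h3 in cells alone, 184 with MDM, 102 with BxTAM and 196 with MiaTAM, as means of ratios that rest on few Nr1h3 counts.

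LXR target genes differed from each other. Abcg1, a sterol exporter, stood at 72.1, 74.8 and 75.5 CPM in cells alone, 74.9, 74.7 and 77.03 CPM with MDM, 96.5, 90.4 and 91.7 CPM with BxTAM and 102, 112 and 107 CPM with MiaTAM. Every BxTAM library was above all MDM and alone libraries, and every MiaTAM library was above all BxTAM libraries. Abcg1 rose against MDM by 0.30 ± 0.04 with BxTAM and 0.50 ± 0.04 with MiaTAM (edgeR adjusted p = 2.16e-08). Between the 3 co-cultures, the summed macrophage markers had the same order. They reached at most 17.6 CPM with MDM, 19.8 to 20.4 CPM with BxTAM and at least 22.4 CPM with MiaTAM. In cells alone the markers were lower than with MDM, at 9.84 to 11.5 CPM, while Abcg1 was not called between those 2 groups (0.03 ± 0.05). Of the 5 tested markers 1 was called higher with BxTAM and 2 with MiaTAM against MDM, beside 17.4% and 19.8% of all genes. Ptprc had 3 counts in all 12 libraries, and the part of these markers in the Abcg1 level was not tested. Abca1, the other main sterol exporter, stood at 31.1, 32.02 and 30.1 CPM in cells alone, 29.00, 31.8 and 29.1 CPM with MDM, 33.6, 30.6 and 28.9 CPM with BxTAM and 28.4, 26.1 and 29.97 CPM with MiaTAM. The MiaTAM libraries were just below those of cells alone, while the BxTAM and MDM libraries overlapped both, and Abca1 was called in none of the 6 comparisons, with -0.14 ± 0.07 for MiaTAM against cells alone, which was called lower without MiaTAM replicate 3 (-0.19).

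Lpcat3, which puts polyunsaturated chains into phospholipids and whose promoter printed above holds CCAAT 3 times, stood at 359.5, 327 and 353 CPM in cells alone, 324, 336 and 365 CPM with MDM, 433, 394 and 395 CPM with BxTAM and 503, 519 and 513 CPM with MiaTAM. The MiaTAM libraries were above all others and the BxTAM libraries above those with MDM and alone. Lpcat3 rose against MDM by 0.25 ± 0.05 with BxTAM and 0.58 ± 0.05 with MiaTAM (edgeR adjusted p = 9.61e-09). It overlaps Emg1 on the table's coordinates, which had 9069 counts beside its own 88628, and without the strand setting reads of the 2 genes cannot be told apart. Mylip, the ubiquitin ligase that degrades lipoprotein receptors, stood at 9.71, 8.77 and 7.98 CPM in cells alone, 13.9, 13.3 and 13.6 CPM with MDM, 11.05, 9.43 and 10.1 CPM with BxTAM and 11.8, 10.8 and 14.1 CPM with MiaTAM. The MDM libraries were above those of cells alone and BxTAM, the latter 2 overlapped, and MiaTAM reached across MDM and BxTAM. Mylip rose with MDM (0.63 ± 0.10) and MiaTAM (0.48 ± 0.10) against cells alone and was lower with BxTAM than with MDM (-0.42 ± 0.10). Of 14 further LXR partners and targets, 9 were tested, and 6 were higher and 1 lower with MDM against cells alone, none and 2 with BxTAM against MDM, and 1 and 1 with MiaTAM against MDM. Among all genes the shares were 32% and 33.1%, 17.4% and 17.3%, and 19.8% and 21.1%. Rxrb, a partner of LXR on DNA, rose with MDM (0.64 ± 0.09), as did Pltp, the phospholipid transfer protein (0.54 ± 0.05), and Smpdl3a, a phosphodiesterase (0.65 ± 0.12), and Rxrb and Pltp were lower with BxTAM than with MDM (-0.27 ± 0.08 and -0.16 ± 0.05).

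**Figure D3:**
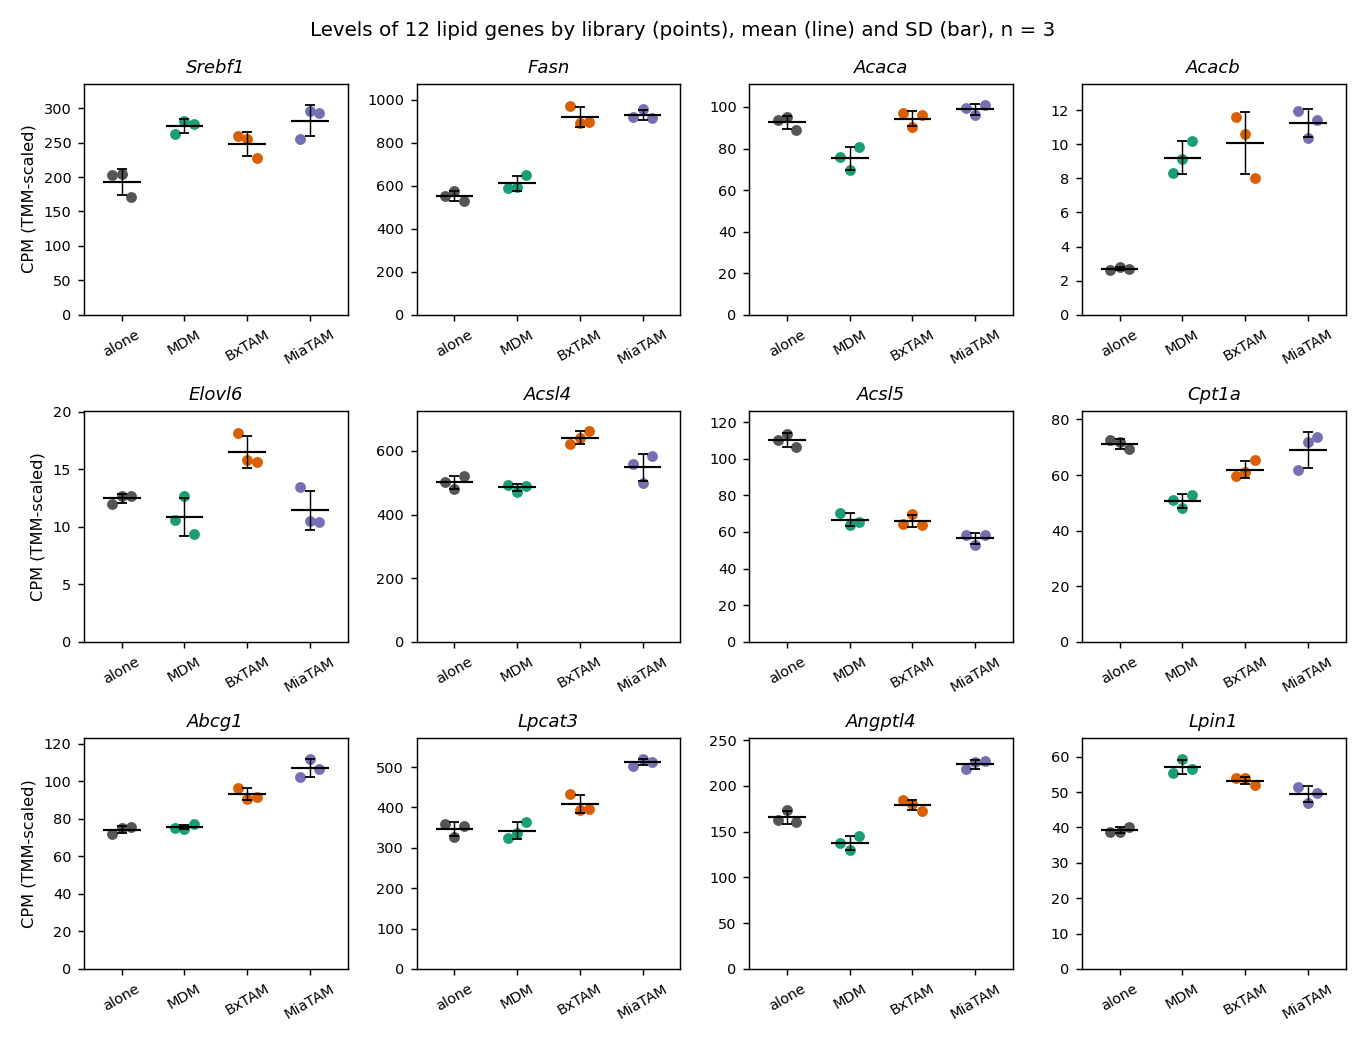
TMM-scaled CPM (linear axes from 0) of 12 of the genes in each library (points) by group, with the mean (line) and SD (bar) of 3 libraries. Fasn lies between 895 and 974 CPM in the 6 TAM libraries, Acacb is lowest in cells alone, Elovl6 and Acsl4 are highest with BxTAM, and Abcg1, Lpcat3 and Angptl4 are highest with MiaTAM.

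Mitochondrial oxidation genes changed by less than 2-fold and in both directions. Of the 7, 1 was higher and 3 lower with MDM against cells alone, 3 higher and none lower against MDM with BxTAM, the same counts with MiaTAM, and none was called between MiaTAM and BxTAM in edgeR at adjusted p under 0.05. Beside these counts stand 32% and 33.1%, 17.4% and 17.3%, 19.8% and 21.1%, and 11% and 13.3% of all genes. Against cells alone, 2 were higher and 4 lower with BxTAM (28.6% and 57.1%), beside 30% and 30.9% of all genes. With MiaTAM 2 were higher and 1 lower than in cells alone (28.6% and 14.3%), beside 31.4% and 33.7%. Cpt1a, which loads fatty acids onto carnitine at the outer membrane, stood at 72.7, 71.7 and 69.3 CPM in cells alone, 50.9, 47.97 and 52.8 CPM with MDM, 59.5, 61.2 and 65.3 CPM with BxTAM and 61.7, 71.9 and 73.7 CPM with MiaTAM. The MDM libraries were below all others. Cpt1a fell with MDM (-0.49 ± 0.06, edgeR adjusted p = 5.61e-07) and was higher than that with BxTAM (0.29 ± 0.06) and MiaTAM (0.45 ± 0.06). With BxTAM it was still lower than in cells alone (-0.20 ± 0.06), and with MiaTAM it was not called against them (-0.04 ± 0.06). Acadm, the medium-chain acyl-CoA dehydrogenase, stood at 34.2, 36.6 and 39.8 CPM in cells alone, 49.6, 45.6 and 46.05 CPM with MDM, 47.7, 49.7 and 50.8 CPM with BxTAM and 47.8, 41.1 and 41.7 CPM with MiaTAM. All 9 co-culture libraries were above those of cells alone. Acadm rose in each, by 0.35 ± 0.07, 0.42 ± 0.07 and 0.24 ± 0.07. Acadl, the long-chain form, fell with MDM (-0.17 ± 0.04, and -0.12 under upper-quartile factors) and was higher than that with BxTAM (0.25 ± 0.04) and MiaTAM (0.17 ± 0.04). Cpt2, which frees the chain inside the mitochondrion, and Acadvl, the very long-chain dehydrogenase, were called only with BxTAM against cells alone (-0.20 ± 0.06 and -0.13 ± 0.05). Neither call held under upper-quartile scaling, and that of Acadvl was also lost without alone replicate 2 (-0.10) or BxTAM replicate 3 (-0.07).

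The trifunctional protein, which carries out the last steps of long-chain oxidation, has an alpha subunit from Hadha and a beta subunit from Hadhb, and these genes are given in full after their values were seen. Hadha stood at 289, 286 and 289 CPM in cells alone, 297, 298 and 289 CPM with MDM, 332, 333 and 339 CPM with BxTAM and 335, 335 and 347 CPM with MiaTAM. Its TAM libraries were above all the others, with 0.22 ± 0.03 for BxTAM and 0.23 ± 0.03 for MiaTAM against cells alone. Hadhb stood at 347, 352 and 352 CPM in cells alone, 274, 273 and 276 CPM with MDM, 269.7, 261 and 272 CPM with BxTAM and 279, 260.3 and 264 CPM with MiaTAM. Here every co-culture library was below every library of cells alone, by -0.35 ± 0.04, -0.39 ± 0.04 and -0.39 ± 0.04. The FPKM of Hadha over that of Hadhb was 0.623 to 0.638 in the libraries of cells alone, 0.803 to 0.835 with MDM, 0.941 to 0.977 with BxTAM and 0.916 to 1.01 with MiaTAM, so that the ranges of cells alone and MDM met no other range and those of the TAM groups overlapped. The 2 genes stand head to head. In RefSeq on GRCr8 their start sites lie on chromosome 6 at 31907801 (Hadha) and 31907500 (Hadhb), with 300 bases between them. The middle 200 bases of that interval (chr6:31907551-31907750, plus strand, 53.5% G and C) are shown because both genes share them as promoter.
Hadha and Hadhb shared: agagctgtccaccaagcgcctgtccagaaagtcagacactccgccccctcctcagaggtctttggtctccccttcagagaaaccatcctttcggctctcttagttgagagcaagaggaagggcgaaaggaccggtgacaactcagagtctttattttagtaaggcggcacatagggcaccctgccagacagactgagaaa

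**Figure D4:**
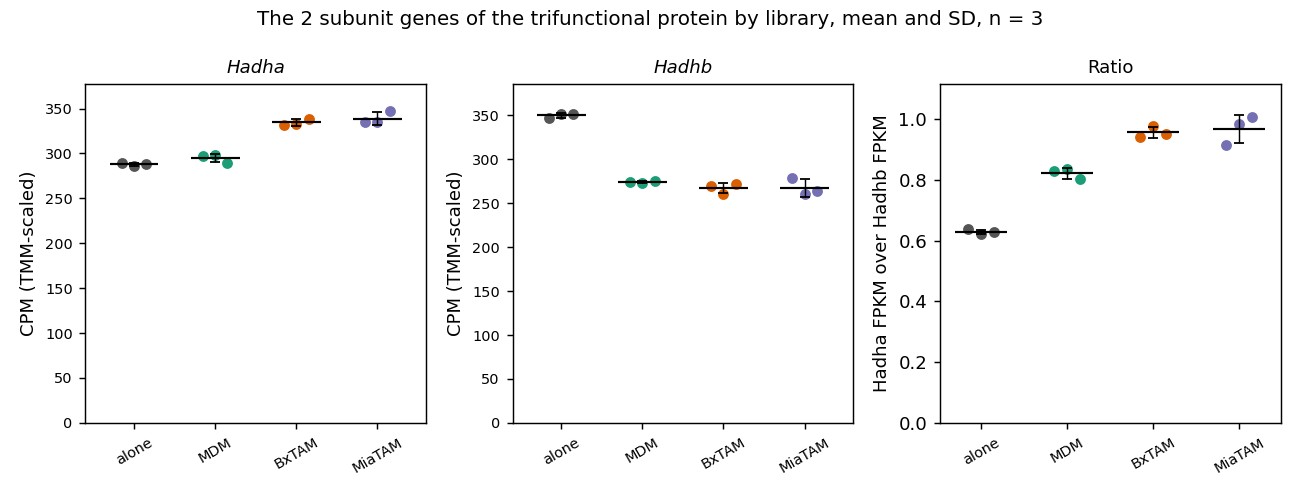
TMM-scaled CPM of Hadha and Hadhb and the ratio of their FPKM in each library (points) by group, with mean (line) and SD (bar) of 3 libraries. Hadha is highest in the 6 TAM libraries, Hadhb is highest in cells alone, and the median ratio goes from 0.628 in cells alone to 0.829 with MDM, 0.952 with BxTAM and 0.983 with MiaTAM.

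Other genes of the carnitine shuttle and oxidation, 20 listed and 19 tested, had 8 higher and 2 lower with MDM against cells alone, 3 and 4 with BxTAM against MDM, and 7 and 5 with MiaTAM against MDM. Among all genes the shares were 32% and 33.1%, 17.4% and 17.3%, and 19.8% and 21.1%. Acad11, a dehydrogenase of very long chains, rose from 25.4 ± 0.871 to 54.1 ± 1.09 CPM with MDM (1.09 ± 0.05) and stood at 50.7 ± 0.818 CPM with BxTAM and 47.4 ± 0.706 CPM with MiaTAM. Acads, the short-chain dehydrogenase, rose (0.58 ± 0.05) and Acad9, which also assembles respiratory complex I, fell with MDM (-0.61 ± 0.06). Of 10 tested peroxisomal genes, 2 were higher and 3 lower with MDM against cells alone, 3 and none with BxTAM against MDM, and 4 and none with MiaTAM against MDM, beside the same shares of all genes. Abcd3, a peroxisomal transporter, was higher with BxTAM (0.24 ± 0.04) and MiaTAM (0.11 ± 0.04) than with MDM, and Abcd2, another, rose with MDM (0.81 ± 0.12).

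Of the 6 PPAR receptor and lipid-induced genes, 4 were higher and 1 lower with MDM against cells alone, 2 higher and none lower with BxTAM against MDM, and 2 higher and 1 lower with MiaTAM against MDM. Beside these counts stand 32% and 33.1%, 17.4% and 17.3%, and 19.8% and 21.1% of all genes. Angptl4, a secreted inhibitor of lipoprotein lipase, stood at 162, 174 and 161 CPM in cells alone, 137, 129 and 145 CPM with MDM, 184, 180.2 and 173 CPM with BxTAM and 218, 226 and 227 CPM with MiaTAM. The MDM libraries were below all others and the MiaTAM libraries above all others. Angptl4 fell with MDM (-0.27 ± 0.05) and was higher than that with BxTAM (0.38 ± 0.05) and MiaTAM (0.70 ± 0.04, edgeR adjusted p = 2.01e-10). Plin2, which has the E-box printed above at 1 of its 2 start sites and whose protein coats lipid droplets, had 383 ± 5.10 CPM in cells alone, 402 ± 13.9 with MDM, 487 ± 16.8 with BxTAM and 480.4 ± 7.41 with MiaTAM. It rose against MDM by 0.28 ± 0.04 with BxTAM and 0.26 ± 0.04 with MiaTAM. Lpin1, a phosphatidate phosphatase that also coactivates PPAR alpha, stood at 38.8, 38.9 and 40.2 CPM in cells alone, 55.4, 59.4 and 56.5 CPM with MDM, 53.9, 53.9 and 52.1 CPM with BxTAM and 51.4, 46.9 and 49.8 CPM with MiaTAM. All co-culture libraries were above those of cells alone, by 0.54 ± 0.05, 0.44 ± 0.05 and 0.33 ± 0.05, and MiaTAM was below MDM (-0.21 ± 0.05).

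The receptor genes themselves were modest in level. Ppara, the receptor that drives oxidation in liver, had 7.96 ± 0.801 CPM in cells alone and 10.03 ± 1.15 CPM with MDM (0.34 ± 0.11), and was called in no other comparison. The libraries overlapped, with MDM replicate 1 (8.76 CPM) below alone replicate 1 (8.86 CPM). With MiaTAM against MDM (-0.26 ± 0.11) Ppara was called lower under the filter of 1 CPM in 3 libraries, without MDM replicate 1 or without MiaTAM replicate 3. Ppard, the widely expressed form, had 77.5 ± 3.02 CPM in cells alone and rose with MDM (0.27 ± 0.05), BxTAM (0.24 ± 0.05) and MiaTAM (0.39 ± 0.05). Pdk4, a kinase that shuts pyruvate out of oxidation when fat is burnt, stood at 0.795, 0.765 and 1.22 CPM in cells alone, 1.61, 1.48 and 1.40 CPM with MDM, 1.18, 1.49 and 1.65 CPM with BxTAM and 1.15, 1.63 and 1.57 CPM with MiaTAM. The MDM libraries were above those of cells alone, and both TAM groups overlapped cells alone. Its changes against cells alone were 0.68 ± 0.25, 0.63 ± 0.25 and 0.63 ± 0.25, and all 3 calls were lost with DESeq2's Wald test, without alone replicate 1 (0.58, 0.54 and 0.54) and without alone replicate 2 (0.55, 0.50 and 0.50). In limma-trend on log2(FPKM + 1) the 3 values were 0.29, 0.27 and 0.27. The calls were also lost one by one without MDM replicate 1 (0.62), BxTAM replicates 2 and 3 (0.60 and 0.52) and MiaTAM replicates 2 and 3 (0.54 and 0.56).

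Other PPAR genes and targets, 12 listed and 9 tested, had 7 higher and 1 lower with MDM against cells alone, 1 and 1 with BxTAM against MDM, and 1 and 3 with MiaTAM against MDM. Among all genes the shares were 32% and 33.1%, 17.4% and 17.3%, and 19.8% and 21.1%. Ppargc1a, the coactivator of mitochondrial genes, rose 2.90-fold with MDM, from 2.09 ± 0.340 to 6.10 ± 0.771 CPM (1.53 ± 0.16). Txnip, a regulator of glucose uptake, rose with MDM (1.17 ± 0.04) and was lower than that with MiaTAM (-0.38 ± 0.04). Ucp2, a mitochondrial carrier, fell with MDM (-0.24 ± 0.05) and was higher than that with BxTAM (0.14 ± 0.05) and MiaTAM (0.39 ± 0.05). In the list of glycerolipid synthesis and lipid droplets, 27 listed and 20 tested, 9 were higher and 8 lower with MDM against cells alone, 5 and 1 with BxTAM against MDM, and 7 and 3 with MiaTAM against MDM, beside the same shares of all genes. Dgat2, the last enzyme of triglyceride synthesis, fell with MDM (-0.16 ± 0.05) and was higher than that with BxTAM (0.26 ± 0.05) and MiaTAM (0.41 ± 0.05). Mogat2, a monoacylglycerol acyltransferase, and Lpin3, a relative of Lpin1, rose with MDM (0.65 ± 0.06 and 0.65 ± 0.06).

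The direct comparison of MiaTAM with BxTAM also tests whether their differences from MDM differ. Abcg1 (0.20 ± 0.04), Lpcat3 (0.33 ± 0.05) and Angptl4 (0.32 ± 0.04) were higher with MiaTAM, and Elovl6 (-0.53 ± 0.11), Acsl4 (-0.23 ± 0.05) and Acsl5 (-0.22 ± 0.05) were lower, and these 6 calls held under all 20 alternatives. Fasn was not called there, at 922 ± 45.6 CPM with BxTAM and 931 ± 22.4 CPM with MiaTAM. Of the 4 tested epithelial markers 1 was higher with MiaTAM, beside 11% of all genes, with Epcam and Krt19 at 0, and their part was not tested. The 9 protein genes read from the mitochondrial chromosome summed to 51320.0 to 51845 CPM with BxTAM and 53758 to 61428 CPM with MiaTAM.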

How the data were processed

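Total RNA was made into libraries with a stranded mRNA kit, per the labels' protocols. The submitters' processing notes name the build Rnor_6.0 and the tools CASAVA, HISAT2 and StringTie 1.3.0. No source used here gives the counting tool, the annotation release or the strand setting. The deposited table holds raw read counts per gene and library, per the file headers, and FPKM values that the authors scaled by gene length and library total. Within a gene, the length implied by a count and its FPKM varied by 0.0944% at most.

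Of 30957 genes, 17963 had a count and 12360 passed edgeR's filterByExpr by group. Counts were fitted in edgeR 4.0.16 (R 4.3.3) with TMM factors of 0.980 to 1.01, 1 mean per group and all 12 libraries in 1 quasi-likelihood fit, with 8 residual degrees of freedom, and p-values were adjusted by Benjamini-Hochberg over all tested genes at 0.05. The median of all genes shifted by at most 0.00894 (log2) in any of the 6 comparisons. The standard error is the change divided by the square root of the F statistic. The method was also run on simulated counts in which all genes had the same spread, read for BxTAM against MDM only. The outcome is not given here, and no support is drawn from it.

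The 34 members, the gene lists and the rules were chosen with earlier results of these data known. Given library by library are the 16 tested members with the widest range between group means and at least 1 CPM, and the lead gene of each step. From each of 8 further lists, up to 3 genes with the smallest p are named. Some genes picked by this rule are not reported here. Where a symbol stood on several rows, the row with most counts was used. Alternatives were DESeq2's size factors, upper-quartile factors, DESeq2 1.42.0's Wald test, no filter, a filter of 1 CPM in 3 libraries, a replicate block, limma-trend (limma 3.58.1) on log2(FPKM + 1), only the 2 groups compared, and each library left out. No pair of libraries was alike within sampling noise. A further kind of TAM that the design text mentions is not analysed here.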

Additional observations from a re-analysis of the deposited data

Results flagged for a closer look

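In 11 genes the response to MiaTAM differed from the response to BxTAM, by the test of MiaTAM against BxTAM in the same edgeR fit (adjusted p under 0.05). Higher with MiaTAM were Nr1h2 (0.18), Abcg1 (0.20), Lpcat3 (0.33), Srebf1 (0.19), Ppard (0.15) and Angptl4 (0.32), as log2 fold changes. Lower with MiaTAM were Elovl6 (-0.53), Fads1 (-0.12), Acsl1 (-0.19), Acsl4 (-0.23) and Acsl5 (-0.22). The LXR receptor Nr1h2 was no longer called without BxTAM replicate 2 (0.16), BxTAM replicate 3 (0.18) or MiaTAM replicate 2 (0.10). Srebf1 was no longer called without BxTAM replicates 2 or 3 (0.21 and 0.13) or MiaTAM replicates 2 or 3 (0.15 and 0.15). Ppard was no longer called without any of the BxTAM libraries (0.13, 0.17 and 0.16) or without MiaTAM replicate 2 (0.08). Fads1 was no longer called without any of the BxTAM libraries (-0.11, -0.11 and -0.13) or without MiaTAM replicates 1 or 3 (-0.11 and -0.11), and Acsl1 without BxTAM replicate 3 (-0.16).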

How the results depend on the processing

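Of 115 calls of single genes over the 6 comparisons, 94 held under all 20 alternatives and none changed direction. The number of genes lower with BxTAM against cells alone was 3 rather than 5 under upper-quartile factors, where Cpt2 and Acadvl were lost. The number lower with BxTAM against MDM was 4 rather than 2 without a filter on low counts and likewise 4 with only the 2 groups fitted, where Nr1h2 and Srebf1 were added. Leaving out each library in turn gave 3 to 6 genes lower with MiaTAM against MDM (3 with all libraries), 3 to 7 higher (6) and 3 to 6 lower (5) with MiaTAM against BxTAM. Under upper-quartile factors that comparison had 8 higher and 4 lower, and under limma-trend on FPKM 4 and 5. No pairing by replicate number was seen, as deviations of same-numbered libraries correlated by -0.138 to 0.139 over 18 pairs. Correlations this low cannot show whether same-numbered libraries shared a culture, which the labels do not say. With a replicate block the genes called higher and lower were 12 and 8 with MDM, 20 and 5 with BxTAM and 20 and 4 with MiaTAM against cells alone, 15 and 3 with BxTAM and 15 and 3 with MiaTAM against MDM, and 6 and 5 between the TAM groups. The cause of these shifts was not tested. Nr1h3, Pdk4 and Acacb had few counts, so their values are the least precise.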
